A study of Mus musculus with 6 samples.

Results

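Genes of macrophages, antigen presentation and lymphocytes were measured in left ventricles of wild-type (WT) and Glut1-TG mice, the latter carrying human Glut1 under the alpha-myosin heavy chain promoter. This promoter is active in cardiomyocytes, so the transgene is expressed there and not by design in immune cells. Both groups held 3 male FVB mice of 11 to 12 weeks on standard chow, with 1 array per sample. Whether the WT mice were littermates is not given in the sources used here. The list names 31 genes chosen by cell type and role. Of these, 30 had a probe set annotated with exactly 1 gene symbol, out of 18193 genes so covered on the Affymetrix mouse array, and Lck was not analysed here. A total of 27 were bright enough to be tested, among 13178 genes, and Cx3cr1, Cd3e and Cd79b were not. Where a gene had several probe sets, the one with the highest mean on the log2 scale stood for it.

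The heart holds a standing population of macrophages among its cardiomyocytes, vessels and fibroblasts, some seeded before birth and renewed in place and some replaced from blood monocytes. They clear dying cells and debris, secrete complement and growth factors, and present antigen. Antigen presentation runs along separate routes: MHC class I, with its light chain B2m, shows peptides from the inside of nearly every cell, and MHC class II, with its invariant chain Cd74, shows captured proteins on macrophages, dendritic cells and B cells. T cells and B cells are sparse in an unstressed ventricle, and their receptors signal through the CD3 chains and the CD79 pair.

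Signals are in arbitrary units on a linear scale, and the arrays share a mean of 500 after trimming 2% at each end. The median over all probe sets was 213 in Glut1-TG replicate 1 and 171 to 188 in the other 5 arrays. Slc2a1, the mouse gene of Glut1, had 489 ± 70.0 (SD, n = 3) in WT and 787 ± 55.4 (SD, n = 3) in Glut1-TG hearts, with every Glut1-TG array above every WT array (log2 fold change 0.69, limma adjusted p = 0.11), and whether its mouse probe set reads the human transgene is not known. The ratio of the 3′ to the 5′ control probe sets of Actb, a sign of RNA integrity, was 1.31 to 1.40 in WT and 0.995 to 1.06 in Glut1-TG arrays, without overlap. That of Gapdh was 0.817 to 0.827 and 0.789 to 0.830. The part of RNA integrity in the values below was not tested.

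Many of the macrophage and antigen presentation genes stood clear of background in both groups, and the lymphocyte genes did not. Probe sets of 29 genes of other organs, such as the eye, pancreas and testis, had signals of 6.67 to 765, with a median of 82.2 and an upper quartile of 172. Of the 30 immune cell genes, 13 lay above the highest of these signals: Csf1r, Cd14, Lyz2, Mrc1, Lyve1, C1qa, C1qb, C1qc, Tyrobp, Ccl6, Ccl9, Cd74 and B2m. Another 7 lay under the upper quartile, namely Itgam, Aif1, Ccr2, Cx3cr1, Cd3e, Cd3g and Cd79b. By percentile of level among the probe sets, B2m stood at 99.2, Lyz2 at 97.4, Csf1r at 95.7 and C1qa at 94.5. Cd3e, a chain that defines T cells, stood at 31.1 and Cd79b, a chain of the B cell receptor, at 22.7, both under the limit for testing, a signal of 115. The other 10, Ptprc, Cd68, Adgre1, Laptm5, Cd163, Fcer1g, Ccl2, Ciita, Tap1 and Cd79a, lay between that upper quartile and the highest signal of the genes of other organs. By this gauge the 13 genes given first, listed for macrophages or antigen presentation, stood above the range of genes of other organs. None of the 4 lymphocyte genes with a probe set did. A level above this range does not show which cells made the RNA.

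**Figure D1:**
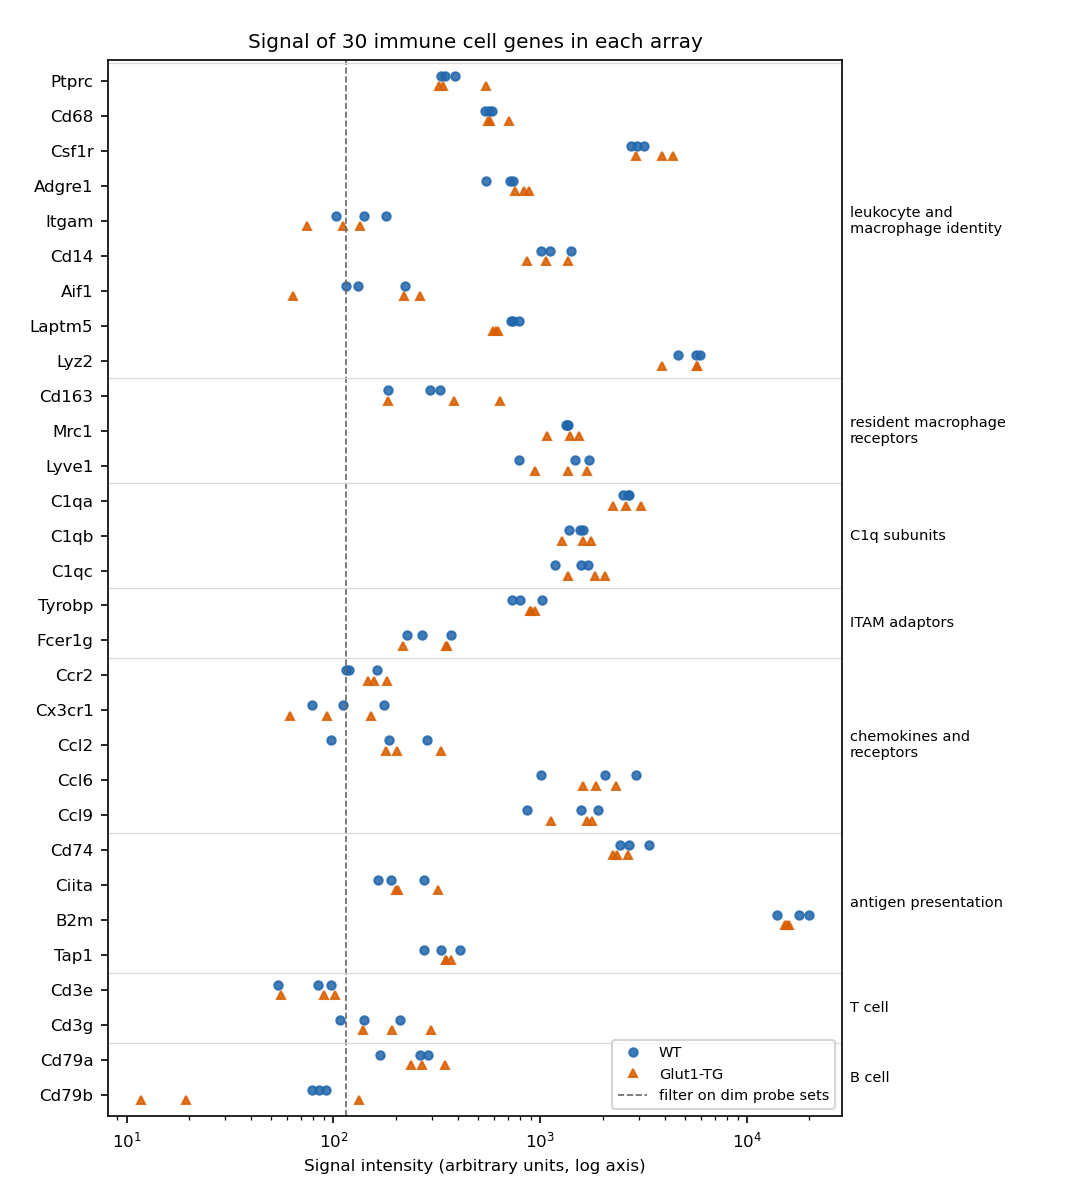
Signal intensity (horizontal log axis, arbitrary units) of the 30 immune cell genes, 1 point per array, with WT as blue circles and Glut1-TG as orange triangles and the limit for testing, a signal of 115, as a dashed line. The groups overlap in all genes tested other than Adgre1, where the Glut1-TG points lie to the right, and Laptm5, where they lie to the left; Cd3e and most points of Cd79b lie left of the line.

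None of the immune cell genes passed the test between WT and Glut1-TG hearts. By limma 0 of 27 rose and 0 fell at an adjusted p under 0.05, where 0.258% of all 13178 genes tested rose and 0.599% fell. At an unadjusted limma p under 0.05, 0 were higher and 1 was lower, against 5.47% and 5.81% of all genes. At the study's thresholds on fold and unadjusted p, 0 were higher and 0 lower, against 3.21% and 2.65%. In 1 gene, Adgre1, every Glut1-TG array lay above every WT array, and in 1 gene, Laptm5, every one lay below. Those are 3.70% of the genes in each direction, against 8.67% and 8.77% of all genes tested. The median log2 fold change of the 27 genes, Glut1-TG minus WT, was 0.093, with a range of -0.40 to 0.45, and that of all genes tested was 0.017. It lay above 0 in 19 of the 27 genes and in 53% of all genes tested.

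How large a change these arrays leave room for differed by gene. In 10 genes the 95% confidence interval from limma lay within a 1.5-fold change in either direction: Cd68, Cd14, Lyz2, Mrc1, C1qa, C1qb, Tyrobp, Cd74, B2m and Tap1. In 21 of the 27 it lay within a 2-fold change. In the other 6, Itgam, Aif1, Cd163, Ccr2, Ccl2 and Cd3g, it reached 2-fold or more, and their signals ran from 63.5 to 639 over all arrays. The standard error of the log2 fold change ran from 0.12 for C1qa to 0.56 for Aif1. In whole ventricle, fewer cells of a type and less RNA per cell cannot be told apart, nor can opposite shifts of both.

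**Figure D2:**
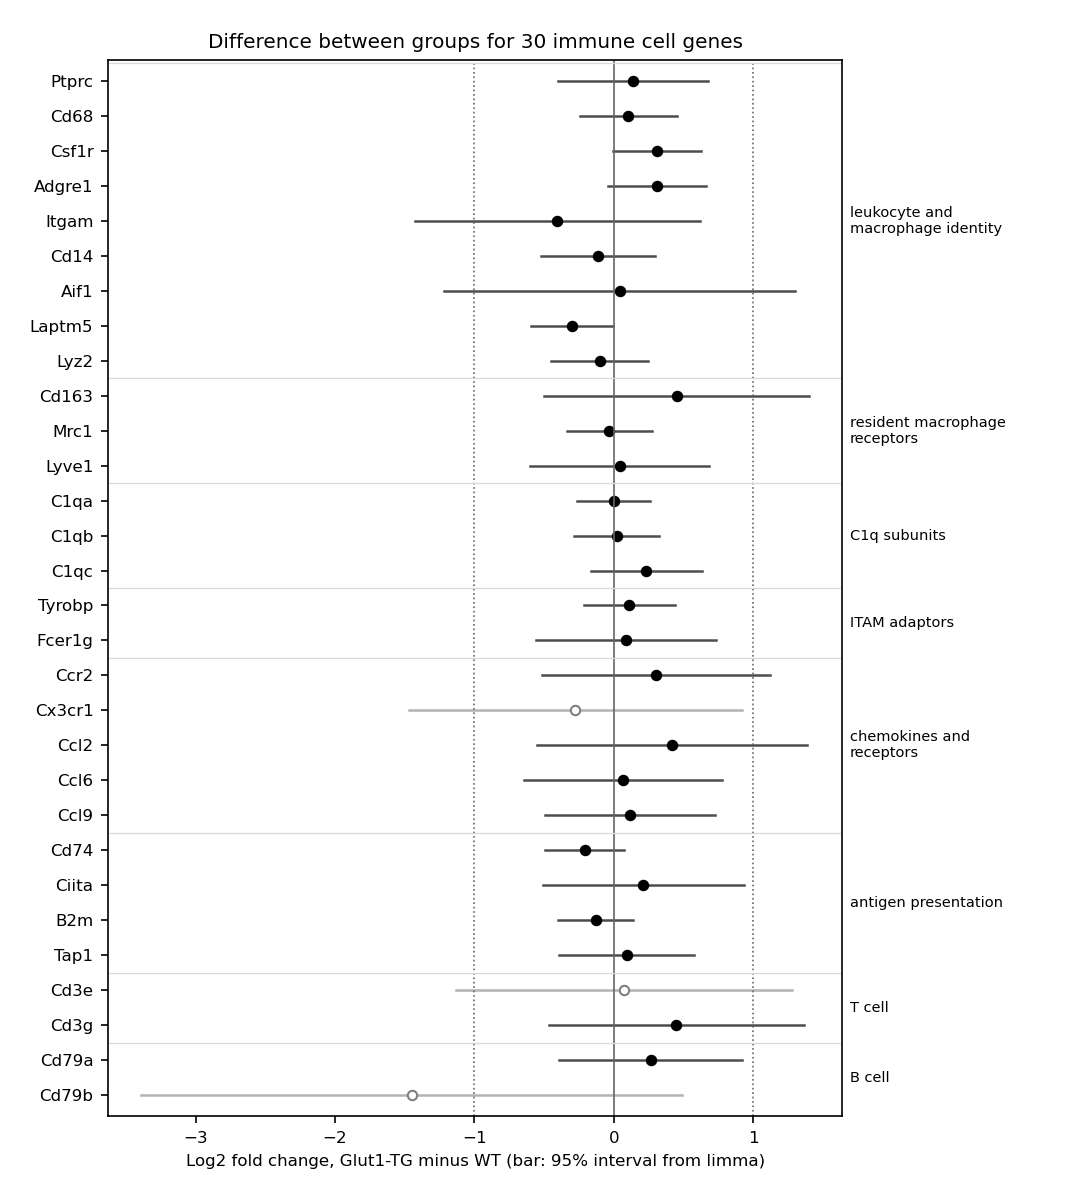
Difference in log2 signal, Glut1-TG less WT (horizontal axis), for the 30 immune cell genes with the 95% confidence interval from limma as a bar; filled points were tested and open points come from the fit without a limit on dim probe sets, and dotted lines mark 2-fold. All intervals reach 0 except that of Laptm5 (-0.59 to -0.0079), and the widest belongs to Cd79b (-3.39 to 0.49).

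Among the genes that identify leukocytes and macrophages, 9 of 9 were tested and 0 passed. Adgre1, the F4/80 antigen of mature macrophages, had signals of 716, 546 and 738 in the WT arrays and 832, 882 and 751 in the Glut1-TG arrays. The Glut1-TG arrays were the 3 highest, though Glut1-TG replicate 3 lay only just above WT replicate 3. The log2 fold change was 0.31 ± 0.16 (SE, limma adjusted p = 0.50), and without WT replicate 2, the lowest array, it was 0.17. Csf1r, the receptor for the growth factor that keeps macrophages alive, had 3186, 2756 and 2930.0 in the WT arrays and 2899, 4369.9 and 3861 in the Glut1-TG arrays. Glut1-TG replicates 2 and 3 were the highest and Glut1-TG replicate 1 lay among the WT arrays, with a log2 fold change of 0.31 ± 0.14 (SE, limma adjusted p = 0.45) and a 95% confidence interval of -0.0070 to 0.62. Without Glut1-TG replicate 1 it was 0.48, without Glut1-TG replicate 2 it was 0.18, and it did not pass in any alternative setting (lowest adjusted p = 0.091).

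Ptprc, the CD45 phosphatase of all leukocytes, had 348, 330.4 and 388 in the WT arrays and 337, 323 and 548 in the Glut1-TG arrays, where 1 Glut1-TG array, replicate 3, stood above the rest. Cd68, a lysosomal glycoprotein of macrophages, had 541, 587 and 567 in the WT arrays and 556, 707 and 569.6 in the Glut1-TG arrays. Its groups overlapped, and by its 95% confidence interval the fold lay within 0.845 to 1.37. Lyz2, the lysozyme of myeloid cells, had 5675, 4636 and 5929 in the WT arrays and 3877, 5695 and 5729 in the Glut1-TG arrays, with the lowest value in Glut1-TG replicate 1. Cd14, a co-receptor for bacterial lipopolysaccharide, had 1175 ± 204 (SD, n = 3) in WT and 1097 ± 252 (SD, n = 3) in Glut1-TG hearts, and its log2 fold change was -0.11 ± 0.18 (SE, limma adjusted p = 0.87). Itgam, the CD11b integrin chain, and Aif1, the calcium-binding protein IBA1, were dim, with log2 fold changes of -0.40 and 0.044. For Aif1 the highest array, Glut1-TG replicate 2, had 4.14 times the signal of the lowest, Glut1-TG replicate 3, so both ends of its range lay within 1 group.

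Laptm5, a lysosomal membrane protein of blood-derived cells that lowers surface levels of antigen receptors, was the gene with the smallest p. Its promoter, the 250 bases before the RefSeq start site (assembly GRCm38.p6), is shown because the gene is singled out here, with capitals for a match to GAGGAA or, on the other strand, TTCCTC, the core sequence bound by PU.1, a transcription factor of myeloid cells.
Laptm5 promoter, GRCm38.p6 chr4:130913066-130913315, plus strand: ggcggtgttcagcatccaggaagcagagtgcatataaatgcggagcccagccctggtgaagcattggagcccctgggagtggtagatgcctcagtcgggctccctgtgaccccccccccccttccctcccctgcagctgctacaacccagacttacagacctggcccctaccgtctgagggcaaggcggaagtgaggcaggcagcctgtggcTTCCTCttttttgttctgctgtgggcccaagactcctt

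The same letters occur in 23.3% of the 32851 promoter windows of this length in the RefSeq table, and in 11 of the 23 windows, or 47.8%, that belong to 21 of the 31 genes. A match is a description of the letters and not a site. Laptm5 had 739, 719 and 786 in the WT arrays and 623, 588 and 613 in the Glut1-TG arrays, so the Glut1-TG arrays were the 3 lowest. The log2 fold change was -0.30 ± 0.13 (SE, limma adjusted p = 0.43), with a 95% confidence interval of -0.59 to -0.0079 and an unadjusted p of 0.045. Its 4 further probe sets went different ways. One of them had 319.9, 284 and 302 in the WT arrays and 149, 139 and 120.4 in the Glut1-TG arrays, a larger difference without overlap (log2 fold change -1.16, limma adjusted p = 0.15 over all 22551 probe sets past the limit). Another had 403, 187 and 250.4 in the WT arrays and 501, 309.5 and 318 in the Glut1-TG arrays, with a log2 fold change of 0.46 in the other direction. The other 2 had -0.029 and 0.68. By their names, 4 of the 5 (suffix _x_at or _s_at) may hybridize to more than 1 transcript, and whether they did was not tested.

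In all, 12 of the 30 genes had 22 further probe sets, of which 11 passed the limit on dim signal and 9 had a log2 fold change of the other sign than the probe set used. Of the 38 probe sets of these genes past the limit, 0 rose and 0 fell by limma, and the smallest adjusted p was that of the Laptm5 probe set just given. A second probe set of Csf1r had 1294, 1123 and 1288 in the WT arrays and 1616, 1980.3 and 1299 in the Glut1-TG arrays, with every Glut1-TG array above every WT array (log2 fold change 0.38, adjusted p = 0.44), and the other had 0.11. Wide disagreement was also seen in Ciita, whose dim further probe sets had 0.92 and -1.44, and in Ccr2, whose further probe sets, all under the limit, had -0.80, 0.83 and 0.97. Also under the limit, Cx3cr1 had a further probe set at 0.84 and Tap1 had 3, at -0.60, 0.36 and 0.75. Further probe sets past the limit had -0.046 for B2m, -0.050 for Ccl6, -0.11 for Ccl9 and -0.066 and 0.18 for C1qb, and 0.17 for Lyve1. That of Ptprc, under the limit, had 0.42.

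**Figure D3:**
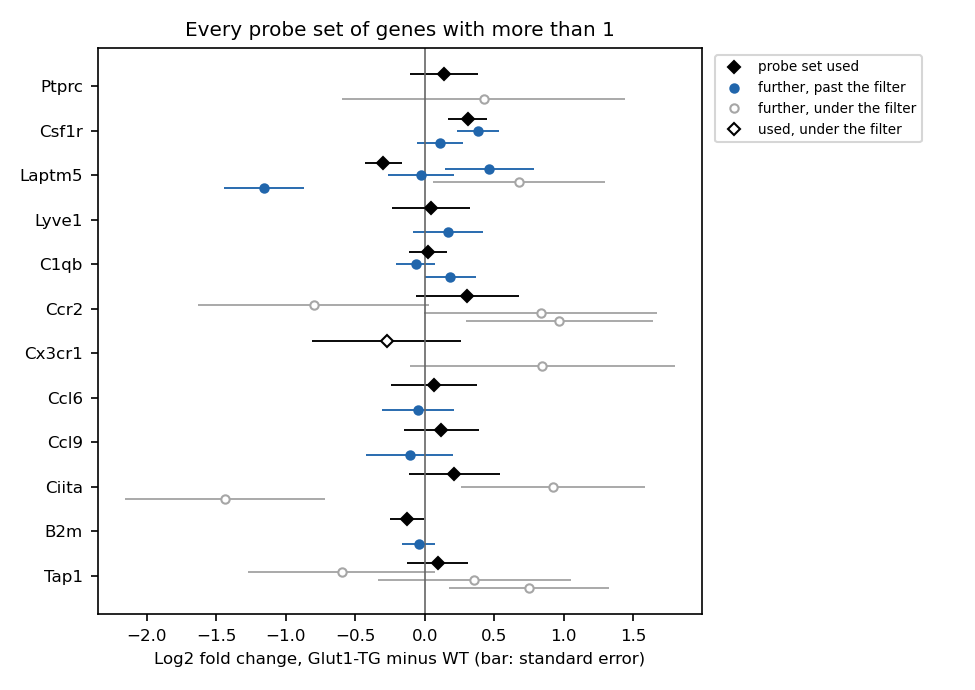
Difference in log2 signal between Glut1-TG and WT (horizontal axis; above 0 is higher in Glut1-TG) for every probe set of the 12 genes with more than 1, with the standard error from limma over all probe sets as a bar. Diamonds are the probe sets used, blue circles further probe sets past the limit on dim signal, and grey open circles those under it; the 5 probe sets of Laptm5 run from -1.16 to 0.68.

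Among the receptors that mark resident tissue macrophages, 3 of 3 were tested and 0 passed. Mrc1, the CD206 mannose receptor, had 1353, 1358 and 1333 in the WT arrays and 1075, 1531 and 1389.7 in the Glut1-TG arrays. The WT arrays lay close together and the Glut1-TG arrays on both sides of them, with a log2 fold change of -0.033 ± 0.14 (SE, limma adjusted p = 0.95). Lyve1, a hyaluronan receptor shared by resident macrophages and lymphatic endothelium, had 789, 1716 and 1464 in the WT arrays and 943, 1362 and 1682 in the Glut1-TG arrays, and replicate 1 was the lowest in each group. Cd163, the scavenger receptor for haemoglobin, had 183, 329 and 294 in the WT arrays and 184, 639 and 385 in the Glut1-TG arrays. Glut1-TG replicate 2 stood well above the others and Glut1-TG replicate 1 lay beside the lowest WT array, and the log2 fold change of 0.45 had a standard error of 0.42. The interval of its fold, 0.708 to 2.64, reached past 2-fold. Without Glut1-TG replicate 2 the log2 fold change was 0.031, without WT replicate 1 it was 0.20, and without Glut1-TG replicate 1 it was 0.93.

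The 3 chains of C1q, the complement protein that macrophages secrete and that opens the classical pathway, are encoded side by side, and 3 of 3 were tested and 0 passed. The promoters of C1qb and C1qc are shown as those of neighbouring genes with the same motif, each 250 bases before the RefSeq start site with capitals for GAGGAA or TTCCTC; C1qa is named only.
C1qb promoter, GRCm38.p6 chr4:136886201-136886450, minus strand: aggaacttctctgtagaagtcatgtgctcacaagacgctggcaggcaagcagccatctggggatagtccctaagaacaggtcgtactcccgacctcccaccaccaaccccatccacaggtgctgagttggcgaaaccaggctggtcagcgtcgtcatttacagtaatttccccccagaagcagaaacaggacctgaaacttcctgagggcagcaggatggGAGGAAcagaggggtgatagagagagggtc
C1qc promoter, GRCm38.p6 chr4:136892915-136893164, minus strand: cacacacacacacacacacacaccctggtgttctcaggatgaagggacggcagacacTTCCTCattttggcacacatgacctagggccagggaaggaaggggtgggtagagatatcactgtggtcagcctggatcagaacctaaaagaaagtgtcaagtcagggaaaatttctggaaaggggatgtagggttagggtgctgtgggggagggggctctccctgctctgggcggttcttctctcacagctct

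C1qa had 2687, 2505 and 2645 in the WT arrays and 2238, 2599 and 3055 in the Glut1-TG arrays, and its log2 fold change was -0.00085 ± 0.12 (SE, limma adjusted p = 1.0) with a 95% confidence interval of -0.26 to 0.26. C1qb had 1382, 1552 and 1612 in the WT arrays and 1270.1, 1612 and 1766 in the Glut1-TG arrays, and C1qc had 1184, 1571 and 1702 in the WT arrays and 1355, 1842 and 2060.2 in the Glut1-TG arrays. In 4 of the 5 probe sets of the 3 genes Glut1-TG replicate 3 was the highest array, and in all 5 the lowest was WT replicate 1 or Glut1-TG replicate 1, so the spread ran across the groups and not between them. The log2 fold changes of C1qb and C1qc were 0.021 and 0.23 (adjusted p = 0.97 and 0.66 from limma). The adaptors Tyrobp and Fcer1g, which carry the ITAM signalling motif for myeloid receptors, were both tested and 0 passed. Tyrobp had 802, 732 and 1025 in the WT arrays and 945, 887 and 905 in the Glut1-TG arrays, with the Glut1-TG arrays inside the WT range, and Fcer1g had 288 ± 72.7 (SD, n = 3) in WT and 308 ± 78.5 (SD, n = 3) in Glut1-TG hearts. Their log2 fold changes were 0.11 and 0.089 (adjusted p = 0.82 and 0.94).

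Of 5 chemokines and receptors, 4 were tested and 0 passed, and Ccl6 and Ccl9 varied more among WT hearts than between the group means. Ccl6, a CC chemokine made by macrophages, had 1005, 2059.9 and 2894 in the WT arrays and 1852, 1601 and 2316 in the Glut1-TG arrays. Ccl9, its neighbour and close relative, had 867, 1576 and 1911 in the WT arrays and 1679, 1121 and 1773 in the Glut1-TG arrays. In all 4 probe sets of the 2 genes WT replicate 1 was the lowest array and WT replicate 3 the highest, so the Glut1-TG arrays lay inside the WT range. For Ccl6 the highest array had 2.88 times the signal of the lowest. The log2 fold changes were 0.065 and 0.12 (standard error 0.32 and 0.27, adjusted p = 0.96 and 0.91 from limma), and without WT replicate 1 they were -0.36 and -0.22. Ccl2, which draws monocytes out of the blood, had 282, 96.9 and 186 in the WT arrays and 330.0, 180.1 and 204 in the Glut1-TG arrays, and WT replicate 2 lay under the limit. Its receptor Ccr2, the mark of monocytes and of macrophages derived from them, had 119.5, 116 and 162 in the WT arrays and 183, 157 and 147 in the Glut1-TG arrays, with log2 fold changes of 0.42 and 0.30 for the pair (adjusted p = 0.76 and 0.80). That of Ccl2 rested on single arrays: it was 0.0049 without WT replicate 2, 0.16 without Glut1-TG replicate 1 and 0.78 without WT replicate 1. Cx3cr1, the fractalkine receptor of monocytes and resident macrophages, was too dim to be tested, with signals of 61.5 to 176.

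Of the antigen presentation genes, 4 of 4 were tested and 0 passed. B2m, the light chain of MHC class I, was the brightest probe set of the list. Its promoter, the 250 bases before the RefSeq start site, is shown for its match, in capitals, to the core of the interferon-stimulated response element, a pair of GAAA separated by any 2 bases.
B2m promoter, GRCm38.p6 chr2:122147437-122147686, plus strand: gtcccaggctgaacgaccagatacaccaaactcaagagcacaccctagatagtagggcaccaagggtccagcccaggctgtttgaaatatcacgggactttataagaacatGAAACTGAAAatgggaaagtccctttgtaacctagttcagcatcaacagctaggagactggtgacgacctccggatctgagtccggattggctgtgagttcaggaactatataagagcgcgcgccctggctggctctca

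This element, read on both strands, was found in 2.98% of all 32851 promoter windows and in 2 of the 23 windows of these genes, those of B2m and Aif1. B2m had 17789, 13967 and 19904 in the WT arrays and 15563, 15907 and 15238 in the Glut1-TG arrays. The Glut1-TG arrays were close together and inside the WT range, with a log2 fold change of -0.13 ± 0.12 (SE, limma adjusted p = 0.74) and a 95% confidence interval of 0.759 to 1.10 on the fold. Tap1, a chain of the transporter that loads peptides onto MHC class I, had 333, 275 and 410.2 in the WT arrays and 372, 349 and 351 in the Glut1-TG arrays, again inside the WT range (log2 fold change 0.093, adjusted p = 0.91). Cd74, the invariant chain of MHC class II, had 3338, 2415 and 2694 in the WT arrays and 2663, 2256 and 2342 in the Glut1-TG arrays. Its WT replicate 1 was the highest and its Glut1-TG replicates 2 and 3 the lowest arrays, and the log2 fold change of -0.21 ± 0.13 (SE, limma adjusted p = 0.58) had a 95% confidence interval of -0.49 to 0.076. Ciita, the coactivator that switches on MHC class II genes, was dim, with 273, 189.8 and 164 in the WT arrays and 319, 202 and 205 in the Glut1-TG arrays and a log2 fold change of 0.21 (adjusted p = 0.85).

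The lymphocyte genes gave little to compare. Cd3g, a chain of the T cell receptor complex, had 209, 107 and 139.9 in the WT arrays and 298, 193 and 139.6 in the Glut1-TG arrays, with the highest value in Glut1-TG replicate 1. Its log2 fold change of 0.45 had a standard error of 0.41 and an adjusted p of 0.73 by limma. Cd79a, the Ig-alpha chain of the B cell receptor, had 168, 286 and 264 in the WT arrays and 347, 267 and 238 in the Glut1-TG arrays, also with Glut1-TG replicate 1 at the top and a log2 fold change of 0.27 (adjusted p = 0.78). Its partner Cd79b had 84.9, 78.9 and 91.8 in the WT arrays and 132, 19.4 and 11.8 in the Glut1-TG arrays. The Glut1-TG arrays held both its highest and its lowest value, all near background, and the log2 fold change of -1.45 in a fit without the limit had a standard error of 0.87. Cd3e had signals of 54.0 to 102 over the 6 arrays. Glut1-TG replicate 1, the top array for Cd3g, Cd79a and Cd79b, was also the array with the highest median over all probe sets, and without it the log2 fold changes of Cd3g and Cd79a were 0.16 and 0.11. Without WT replicate 1 they were 0.71 and 0.031, and with each array centred on the median of the genes tested they were 0.40 and 0.22.

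Summed over its genes, each part of the list overlapped between the groups. The 17 macrophage genes (identity, resident receptors, C1q and adaptors) summed to 21274, 21081 and 23259 in the WT arrays and 19184, 24586 and 24796 in the Glut1-TG arrays. The lowest and the 2 highest sums were Glut1-TG arrays. The 4 antigen presentation genes summed to 16847 to 23172 in WT and 18135 to 18917 in Glut1-TG arrays, the 5 chemokine and receptor genes to 2450.2 to 5231 in WT and 3210.3 to 4534 in Glut1-TG arrays and the 4 T and B cell genes to 517 to 579.6 in WT and 480.1 to 879 in Glut1-TG arrays. Across the 27 genes tested, WT replicate 3 was the highest array in 8 and WT replicate 2 the lowest in 8, while each of the 6 arrays was the highest in at least 1 gene. Markers of other heart cells were set beside these sums. The 15 cardiomyocyte markers summed to 594535 to 723259 in WT and 553893 to 587831 in Glut1-TG arrays, 0.871 times the WT mean and without overlap, and 5 of the 15 were lower without overlap (against 8.77% of all genes tested) though 0 passed limma. Among them, Csrp3 and Mybpc3, proteins of the sarcomere, had log2 fold changes of -0.30 and -0.29 (adjusted p = 0.16 and 0.29). The median log2 fold change of the 15 markers was -0.20, -0.24 after centring on the median of the genes tested and -0.0084 after quantile normalization. The difference in these markers thus depended on the scaling of the arrays, and of the scalings just given only quantile normalization brought it near 0. That setting gives all arrays the same distribution of values. These markers, with signals of 13431 to 54125, lie near its top, where it leaves little room for a shift shared by the brightest probe sets. The part of the cardiomyocyte markers in the values above was not tested beyond the centring given next. The 15 endothelial markers summed to 80862 to 84035 in WT and 77814 to 87806 in Glut1-TG arrays and the 14 fibroblast markers to 67353 to 75849.5 in WT and 60758 to 81037 in Glut1-TG arrays. Kdr, a receptor for VEGF, and Cdh5, the cadherin of endothelial junctions, had log2 fold changes of -0.44 and 0.22, and Postn and Lum, matrix proteins of fibroblasts, had 0.31 and 0.29 (adjusted p = 0.23, 0.53, 0.40 and 0.59 from limma). Centring each array on the cardiomyocyte markers shifted the median of all genes tested from 0.017 to 0.22 and that of the immune cell genes from 0.093 to 0.30 on the log2 scale, and 0 of them passed.

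**Figure D4:**
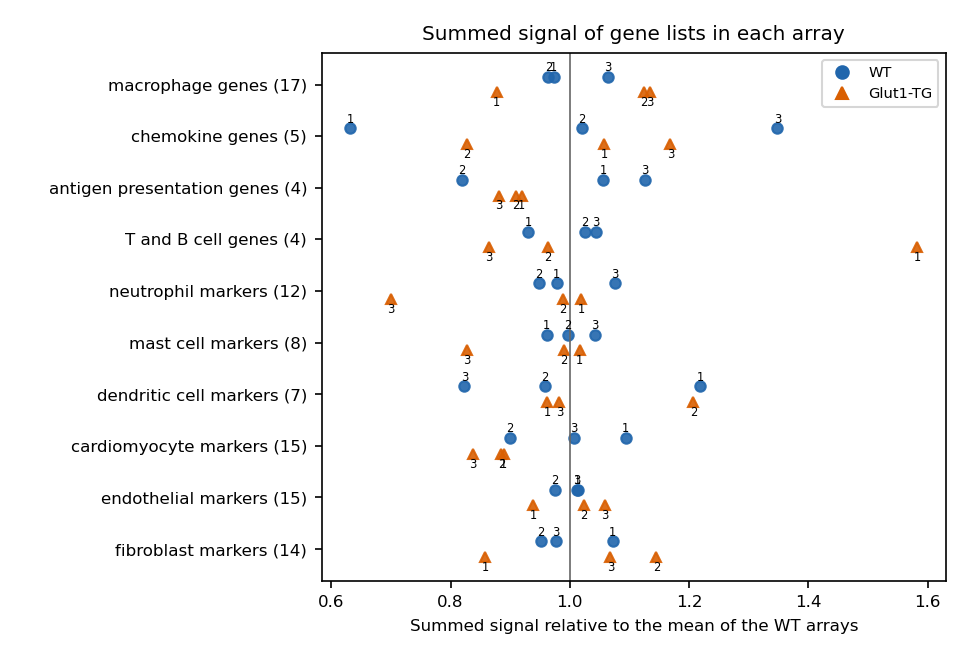
Summed signal of each gene list in each array (horizontal axis, relative to the mean of the WT arrays; list size in brackets), with WT as blue circles, Glut1-TG as orange triangles and the replicate number beside each point. In these deposited signals the cardiomyocyte markers are the one list shown whose groups do not overlap, with a Glut1-TG mean of 0.871 times the WT mean.

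Other genes of the same cells and pathways were read from 9 further lists, which hold 242 genes beside those above, and 163 of these were tested. By limma 0 rose and 0 fell, with 7 higher and 9 lower at an unadjusted p under 0.05, or 4.29% and 5.52%, against 5.47% and 5.81% of all genes tested. Their median log2 fold change was 0.044. Of 49 further myeloid genes, 0 passed, with 5 higher and 4 lower without overlap, against 8.67% and 8.77% of all genes tested. Cyba, the p22phox subunit of the NADPH oxidase of phagocytes and other cells, had the smallest p, with 1149, 947 and 1307 in the WT arrays and 604, 680.1 and 829.6 in the Glut1-TG arrays. The Glut1-TG arrays were the 3 lowest (log2 fold change -0.69, standard error 0.17, adjusted p = 0.12 from limma). Of the same oxidase, Cybb, Ncf1 and Ncf4 had log2 fold changes of 0.64, -0.018 and 0.15. Cbr2, a carbonyl reductase found in resident macrophages, lay higher without overlap, with 636 ± 54.0 (SD, n = 3) in WT and 829 ± 66.2 (SD, n = 3) in Glut1-TG hearts (log2 fold change 0.38, adjusted p = 0.35).

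Of 14 genes of MHC class I and its loading, 0 passed and 3 were lower without overlap (against 8.77% of all genes tested). At an unadjusted limma p under 0.05, 0 of the 14 were higher and 4 lower, against 5.47% and 5.81% of all genes tested. Their median log2 fold change was -0.14, -0.15 after quantile normalization and -0.18 after centring on the median of the genes tested. It was 0.067 after centring on the cardiomyocyte markers, where the median of all genes tested was 0.22. Psme1, a proteasome activator subunit, had 8270.3, 7736 and 7156 in the WT arrays and 6349, 6385 and 5784 in the Glut1-TG arrays (log2 fold change -0.32, adjusted p = 0.17). Pdia3, a chaperone of the peptide-loading complex, had -0.28 (adjusted p = 0.34). Of 12 genes of MHC class II, 0 passed, with a median of 0.061 that turned to -0.00047 after quantile normalization. Rfx5, a factor that binds MHC class II promoters, was higher without overlap with 401 ± 44.3 (SD, n = 3) in WT and 608 ± 88.1 (SD, n = 3) in Glut1-TG hearts (log2 fold change 0.60, adjusted p = 0.24). H2-Aa, a class II chain, had -0.26 (limma adjusted p = 0.50), and 0.15 as the mean of its probe sets. The chains H2-Ab1, H2-Eb1 and H2-Ea had 0.032, 0.052 and 0.071. Among 22 interferon response genes 0 passed, with a median of 0.016 that turned to -0.032 after centring on the median of the genes tested. Without overlap 0 of the 22 were higher and 3 lower, against 8.67% and 8.77% of all genes tested. Gbp6, an interferon-induced GTPase, had 2882, 1836 and 2888 in the WT arrays and 1052, 1312 and 1761 in the Glut1-TG arrays. All Glut1-TG arrays lay under all WT arrays there (log2 fold change -0.88, standard error 0.21, limma adjusted p = 0.13). Of the same family, Gbp2 had -0.38 (limma adjusted p = 0.42) and Gbp3 had 0.15.

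Of 21 further chemokines and receptors, 0 passed. Ccl11, the eosinophil attractant eotaxin, had 339.6, 522 and 629 in the WT arrays and 284, 303 and 269 in the Glut1-TG arrays, lower without overlap (log2 fold change -0.76, adjusted p = 0.30 from limma), and Cxcr4, the receptor of Cxcl12, had -0.67 (adjusted p = 0.38). Of 10 complement genes and 14 genes of cytokines and the inflammasome, 0 passed, with medians of 0.13 and -0.015. After centring on the cardiomyocyte markers the latter was 0.19, where the median of all genes tested was 0.22. In the complement list, Cd59a, which shields cells from lysis, had -0.18 and C1ra, a protease of the C1 complex, had 0.26 (adjusted p = 0.52 and 0.60). Nlrp3, the inflammasome sensor, had 433, 432 and 274 in the WT arrays and 466, 532 and 564 in the Glut1-TG arrays, higher without overlap (log2 fold change 0.48, adjusted p = 0.45), and Il1rn, the interleukin-1 receptor antagonist, had 0.59 (adjusted p = 0.49). Of 11 T and NK cell genes and 11 B cell genes, 0 passed. Their medians were 0.37 and 0.16, and 13 of 24 and 5 of 16 such genes with a probe set were too dim to be tested. Beside these, the median of the 14 genes of other organs bright enough to be tested was 0.28. Cd8a, a co-receptor of cytotoxic T cells, had 452, 373 and 491 in the WT arrays and 589, 790.2 and 522 in the Glut1-TG arrays (log2 fold change 0.52, adjusted p = 0.38), and the mean of its probe sets had -0.092. Il7r, the interleukin-7 receptor of lymphocytes, had 0.89 (adjusted p = 0.47). Ms4a1, the CD20 antigen of B cells, had 204 ± 38.4 (SD, n = 3) in WT and 289 ± 47.3 (SD, n = 3) in Glut1-TG hearts (log2 fold change 0.51, adjusted p = 0.53), and Cr2, a complement receptor of B cells, had 0.65 (adjusted p = 0.58). Cd8a, Il7r, Ms4a1 and Cr2 were higher without overlap, or 2 of 11 in each list, with 0 lower. Of all genes tested, 8.67% were higher and 8.77% lower without overlap. After quantile normalization and after centring on the median of the genes tested, the T and NK cell median was 0.26 and 0.32, and the B cell median 0.047 and 0.11.

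**Figure D5:**
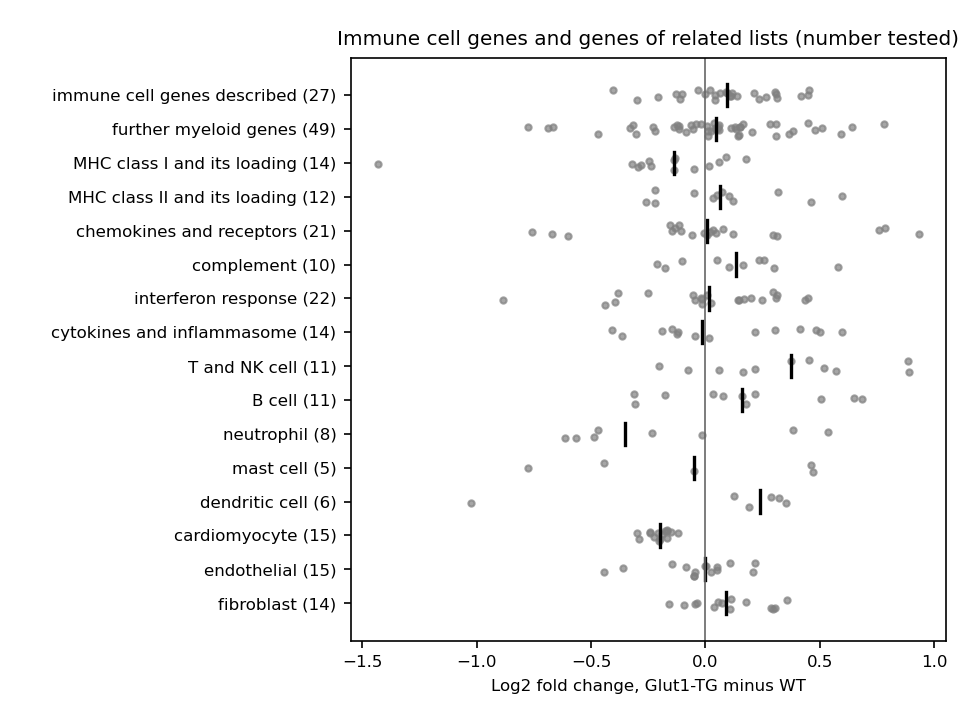
Log2 fold change (horizontal axis; above 0 is higher in Glut1-TG) of each gene tested in the list described here, in 9 related lists and in 6 lists of cell type markers, as 1 point per gene with a black line at the median and the number tested in brackets. No point passed limma. The medians of the 9 related lists lie between -0.14 and 0.37, and that of the neutrophil markers is -0.35. Medians of MHC class II, chemokines and endothelial markers change sign after quantile normalization. Those of chemokines, further myeloid genes and interferon response do so after centring on the median of the genes tested. Those of MHC class I, cytokines and mast cell markers do so only after centring on the cardiomyocyte markers. In that setting the median of all genes tested is 0.22, and that of the cardiomyocyte markers is set near 0 by the centring itself.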

How the data were processed

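From each left ventricle the authors extracted RNA with Trizol, made biotinylated cRNA and hybridized it to an Affymetrix mouse array, and the scans were processed with GCOS (version not given in the sources used here). The deposited values are signal intensities per probe set on a linear scale, scaled to a trimmed mean of 500, with no detection calls. Of 45101 probe sets, 64 controls were left out and 48 values under 1 were set to 1 before log2. Symbols came from the platform annotation, in which 34945 probe sets had 1 symbol. The filter on dim probe sets removed the dimmest 40%, those below a signal of 115. Glut1-TG and WT were compared with limma 3.58.1 in R 4.3.3 (lmFit, eBayes with an intensity trend), with Benjamini-Hochberg adjustment over 13178 genes and 0.05 as the threshold. Neither scan date nor batch is labelled, nor is it said whether replicates came from separate litters, so p-values measure only the spread between these samples, which may be technical. Means are given with SD, n = 3.

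The genes and lists were chosen with earlier results of these data known. All genes of the list are named, and from each further list the genes past limma, up to 4, or with none up to 2 of smallest p. Further probe sets are named where their sign differed or their log2 fold change differed by over 0.5. The alternatives were quantile normalization, centring on the median of the genes tested or on the cardiomyocyte markers, an offset of 50, no filter, a strict filter keeping the upper 40%, the mean of probe sets, eBayes without trend, the methods' t-test, the study's thresholds, unadjusted p, the replicate block and leaving out each array. A fit of all 22551 single-symbol probe sets past the filter was added after the data were seen. Promoters come from a RefSeq table of GRCm38.p6, which matched 21 of the 31 genes. The fit was tested on simulated data.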

Additional observations from a re-analysis of the deposited data

How the results depend on the processing

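None of the immune cell genes passed under any of the 16 alternative fits, among 468 values, and the smallest adjusted p was 0.091 (Csf1r). None of the 26 further genes named passed in 413 values, where the smallest limma adjusted p was 0.0515 (Lum, without Glut1-TG replicate 1). At an unadjusted p the immune cell genes numbered 0 higher and 1 lower, and further genes of the 9 lists 7 higher and 9 lower, or 6 and 4 at the study's thresholds. The median of the immune cell genes was 0.30 after centring on the cardiomyocyte markers and otherwise moved by less than the spread between arrays (0.069). Since no gene passed, the signs are of values and not of calls, and the cause of a changed sign was not tested. Cd14, Lyz2, Mrc1, C1qa, B2m and Cd59a had 0.093, 0.10, 0.17, 0.20, 0.073 and 0.027 after centring on the cardiomyocyte markers. Aif1, C1qa and Cd3e had -0.046, 0.040 and -0.027 after quantile normalization. Aif1, Lyve1 and C1qb had -0.0038, -0.0057 and -0.026 after centring on the median of the genes tested. Cx3cr1, Ciita, Pdia3, H2-Aa and Cd8a had 0.28, -0.10, 0.0059, 0.15 and -0.092 as the mean of their probe sets. Leaving out 1 array at a time gave log2 fold changes of -0.11 to 0.28 for Ptprc, -0.0047 to 0.17 for Cd68, -0.28 to 0.051 for Cd14, -0.34 to 0.68 for Aif1, -0.21 to 0.086 for Lyz2, -0.14 to 0.11 for Mrc1, -0.29 to 0.27 for Lyve1, -0.11 to 0.11 for C1qa, -0.080 to 0.16 for C1qb, -0.069 to 0.32 for Fcer1g, -0.61 to 0.043 for Cx3cr1, -0.36 to 0.40 for Ccl6, -0.22 to 0.35 for Ccl9, -0.0051 to 0.42 for Ciita, -0.049 to 0.24 for Tap1 and -0.18 to 0.33 for Cd3e. The genes that kept their sign had 0.18 to 0.48 for Csf1r, 0.17 to 0.39 for Adgre1, -0.61 to -0.17 for Itgam, -0.33 to -0.26 for Laptm5, 0.031 to 0.93 for Cd163, 0.078 to 0.41 for C1qc, 0.0089 to 0.25 for Tyrobp, 0.22 to 0.46 for Ccr2, 0.0049 to 0.78 for Ccl2, -0.31 to -0.079 for Cd74, -0.27 to -0.018 for B2m, 0.16 to 0.71 for Cd3g, 0.031 to 0.41 for Cd79a and -2.49 to -0.75 for Cd79b.

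Over all genes, 34 rose and 79 fell. These counts were 80 and 25 after centring on the cardiomyocyte markers, 10 and 39 as the mean of probe sets, 2 and 2 by eBayes without trend, and 1 and 0 by the methods' t-test after adjustment. They were 721 and 765 at an unadjusted p, 423 and 349 at the study's thresholds, and 13 to 30 and 31 to 65 without 1 array. The counts at the study's thresholds are of genes past the filter, with 1 probe set per gene. The paper's own lists at these thresholds are longer, and the reason was not tested. With the replicate number as a block 46 fell, and 0 immune cell genes passed. The replicate numbers carry no stated pairing. Same-numbered arrays had correlations of 0.080, -0.033 and 0.055 in their deviations over genes. WT replicates 1 and 3 correlated best with the same-numbered Glut1-TG array, and WT replicate 2 with Glut1-TG replicate 3. With 3 arrays in each group these values cannot decide whether the samples are paired. The strict filter left some dim genes without a value. The number of arrays and the dim signals of the lymphocyte genes limit what could be seen.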

Other observations

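Markers of other blood-derived cells overlapped between the groups when summed. The 12 neutrophil markers with a probe set summed to 2634 to 2988 in WT and 1943 to 2834 in Glut1-TG arrays and the 8 mast cell markers to 1188 to 1288 in WT and 1022 to 1256 in Glut1-TG arrays, and the 7 dendritic cell markers had a Glut1-TG mean 1.05 times the WT mean, with overlap. Of the 8, 5 and 6 of them that were tested, 0 passed limma. The median log2 fold change of the 8 neutrophil markers tested was -0.35. Without overlap 1 of these 8 was higher and 1 lower, against 8.67% and 8.77% of all genes tested. Ngp, a neutrophil granule protein, had 356, 363 and 423 in the WT arrays and 559.7, 547 and 543 in the Glut1-TG arrays, higher in Glut1-TG arrays without overlap (log2 fold change 0.54, adjusted p = 0.26 from limma), while Csf3r, the receptor that drives neutrophil output, was lower without overlap at -0.47 (adjusted p = 0.54). The 6 platelet markers summed to 3124 to 3577 in WT and 3493 to 3564 in Glut1-TG arrays and the 4 erythroid markers to 768 to 1014 in WT and 661 to 1259.9 in Glut1-TG arrays, with overlap between the groups in both. The 7 proliferation markers, which would mark dividing cells of any type, summed to 673 to 954 in WT and 788 to 1133 in Glut1-TG arrays, and of the 4 bright enough to be tested 0 passed.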
